A study of Mus musculus with 32 samples.

Results

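Transcripts of 9 genes of semaphorin and Slit axon guidance were described in sorted cells of the mouse olfactory mucosa. They are the ligands Sema3a, Sema3f and Slit1, the semaphorin receptor genes Nrp1, Nrp2, Plxna1 and Plxnc1, and the Slit receptors Robo1 and Robo2. The genes were chosen by name, with earlier results of these data known. Each was represented by the probe set that the platform annotation gives to its symbol alone, with the highest mean over the 32 arrays where a gene had several. All 9 were measured, each by 1 probe set, among 19,938 genes tested. All mice were adults carrying the S100a5-tauGFP reporter, so the vehicle controls carried it too. Cells of the dissociated mucosa were sorted on their fluorescence, as GFP-positive or GFP-negative, after mice had received vehicle, eugenol (a clove odorant) or muscone (a musk odorant). Mice were housed singly in an olfactometer, with 26 h of clean air followed by 14 h of exposure in pulses of 10 s every 5 min. The 8 groups of 4 arrays were vehicle GFP-positive, vehicle GFP-negative, eugenol GFP-positive and eugenol GFP-negative cells in the eugenol experiments, and vehicle GFP-positive, vehicle GFP-negative, muscone GFP-positive and muscone GFP-negative cells in the muscone experiments. The 4 arrays that share a number in their titles are called an experiment, and there were 4 eugenol and 4 muscone experiments. The sources used here do not say how many animals gave an array or whether arrays of a group came from different animals, so the p-values measure the spread between these samples, which may be technical.

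Axons of olfactory sensory neurons grow from the nose to the olfactory bulb, where neurons that express the same odorant receptor converge on shared glomeruli. Secreted class 3 semaphorins bind neuropilins, which pair with A-type plexins to pass the signal into the growth cone, whereas Slits bind Robo receptors. In this system graded Nrp1 and Sema3a, made by the axons themselves, order them along the anterior to posterior axis of the bulb. Graded Nrp2, Robo2 and Sema3f, with Slit1 in the target, order them along the dorsal to ventral axis. Plxnc1 differs from these pairs, since it is a receptor for the membrane-anchored semaphorin Sema7a and is also found on white blood cells.

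The promoters of Plxnc1 and Sema3a, the 2 genes with the largest differences between the sorted fractions under vehicle, are shown because their base composition differs although both transcripts were lower in GFP-positive cells. They are 300 bases long, from 250 before to 50 after the transcript's start, taken from RefSeq (GRCm38.p6) and written 5′ to 3′ on the gene's strand. Capitals mark E-box letters, CANNTG, which basic helix-loop-helix factors can bind. The Plxnc1 window lies at chr10:94944796-94945095 on the minus strand, and the Sema3a window at chr5:13396534-13396833 on the plus strand.
Plxnc1: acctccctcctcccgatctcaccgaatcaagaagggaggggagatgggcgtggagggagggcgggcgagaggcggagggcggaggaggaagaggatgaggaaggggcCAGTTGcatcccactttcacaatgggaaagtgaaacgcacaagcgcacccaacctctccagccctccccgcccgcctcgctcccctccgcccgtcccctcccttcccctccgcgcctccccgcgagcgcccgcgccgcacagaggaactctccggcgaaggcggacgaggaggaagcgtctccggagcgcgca
Sema3a: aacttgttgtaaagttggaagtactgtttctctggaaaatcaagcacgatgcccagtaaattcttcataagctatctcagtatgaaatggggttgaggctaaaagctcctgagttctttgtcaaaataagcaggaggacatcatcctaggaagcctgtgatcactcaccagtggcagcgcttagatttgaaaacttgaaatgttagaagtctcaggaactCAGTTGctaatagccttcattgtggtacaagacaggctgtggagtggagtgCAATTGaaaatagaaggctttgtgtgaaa
The Plxnc1 window had a GC content of 69.0% and 1 E-box, which starts at position −143 from the start. The Sema3a window had a GC content of 41.3% and 2 E-boxes, at −30 and +22. The median GC content of the 32,851 promoters in the table was 52.7%, and 72.3% of them held CANNTG on either strand, so these matches were common. Of the 9 genes 6 had a promoter in the table, 8 promoters in all. CCCNNGGG, letters bound by the olfactory EBF factors, occurred in 1 of the 8, a Robo2 promoter, against 13.7% of all promoters. The letters TAATTA and TGACGTCA occurred in 0 of the 8, against 5.29% and 1.79% of all promoters (both strands, where matches of different motifs may overlap). These matches describe the windows and are not evidence of binding.

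The deposited values are log2 signals, in which a difference of 1 is 2-fold. The median of all probe sets ran from 6.72 to 8.81 over the arrays, and muscone experiment 3 gave the lowest values of all 9 genes. Arrays of 1 group correlated at 0.901 to 0.991. Vomeronasal receptors, 167 genes used mainly in another organ, mark the dim end of the scale, and every one of the 9 genes lay above the 95th percentile of them on each of the 32 arrays. S100a5, whose name the reporter carries, ran from 4.67 to 12.2 in GFP-positive and from 4.63 to 11.1 in GFP-negative cells, and Omp, the marker of mature neurons, from 13.2 to 14.4 and from 12.4 to 14.2. Omp was thus bright on both sides of the gate. Among markers of other cells, neutrophil genes were lower in GFP-positive cells for 8 of 8 genes (median difference −4.01), macrophage genes for 7 of 7 (−1.66), B cell genes for 4 of 4 (−3.62), basal progenitor genes for 7 of 7 (−2.71) and immature neuron genes for 7 of 9 (−0.64). Mature neuron genes were higher for 15 of 15 (+0.51) as deposited. Because array levels differed, 2 other scalings recur here. On the neuron scale each array is centred on the mean of 15 mature neuron genes, which include S100a5, the gene of the reporter. On the receptor scale it is centred on the median odorant receptor.

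**Figure D1:**
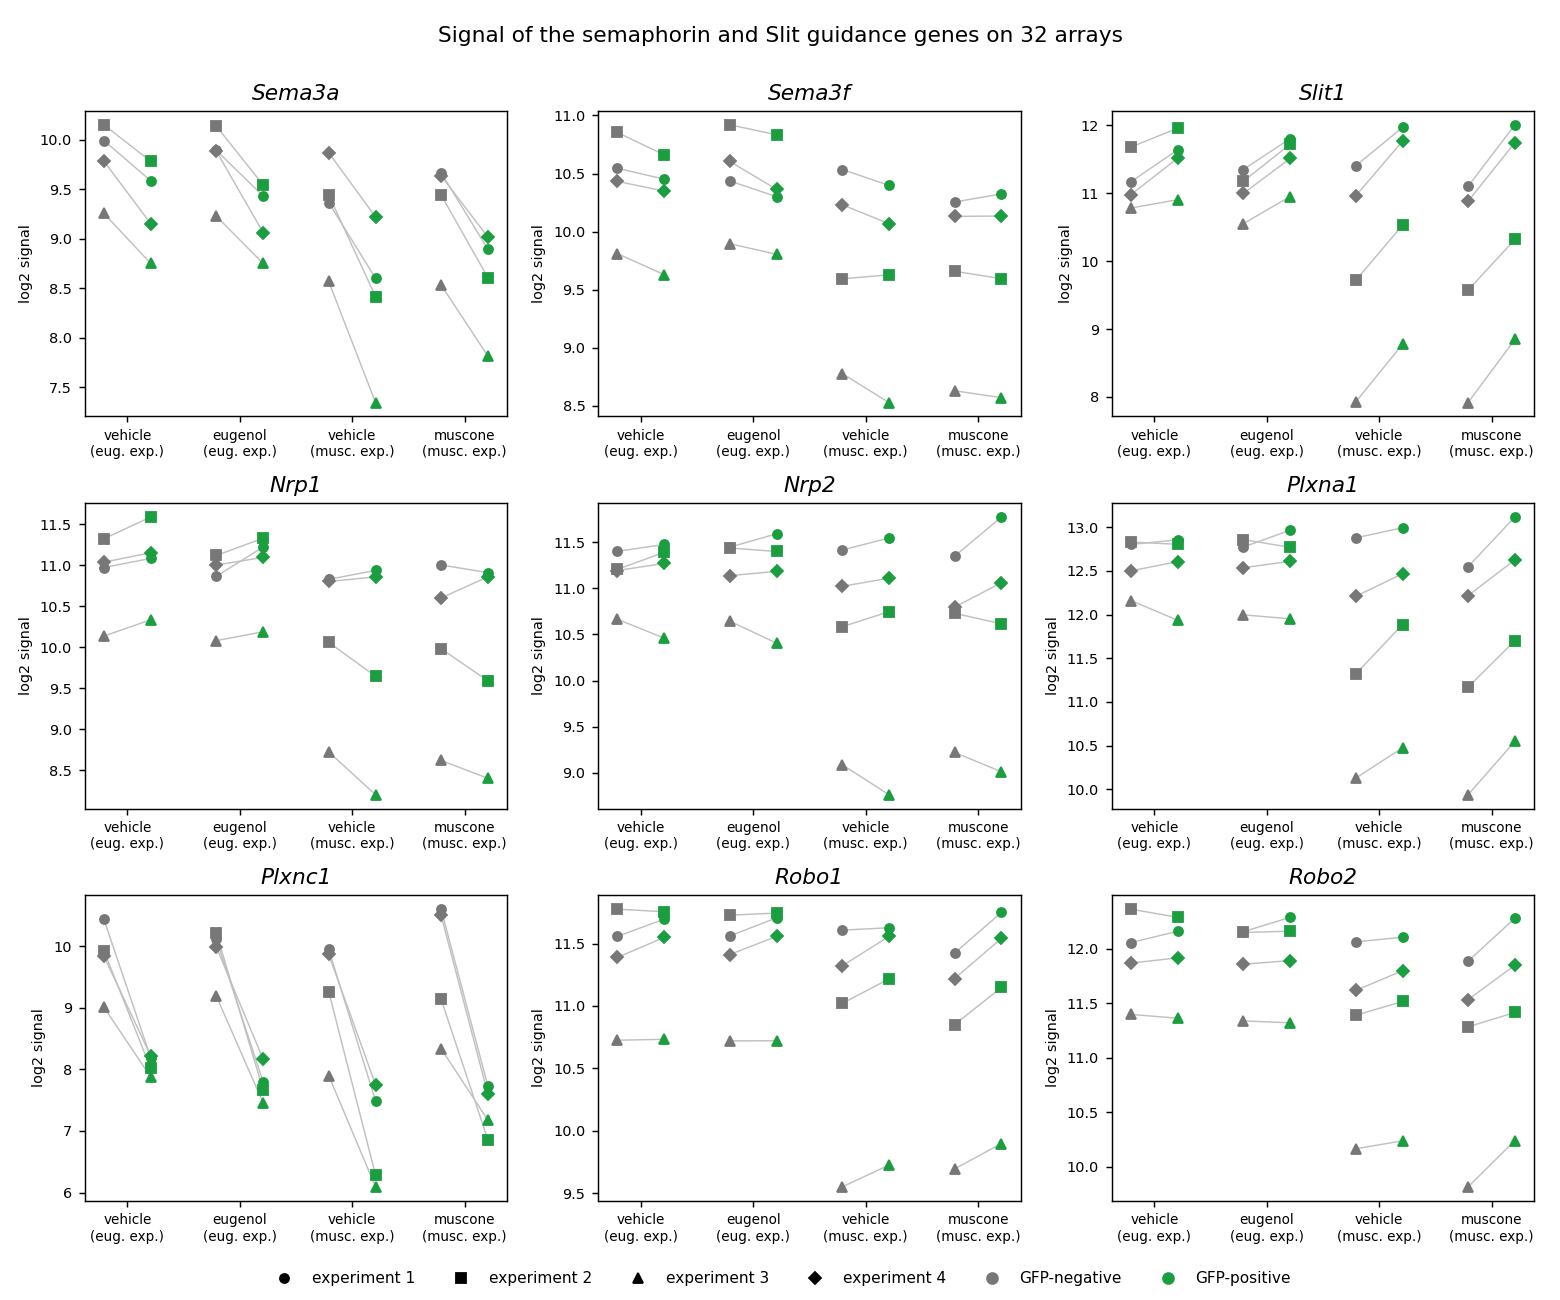
Log2 signal (vertical axes, each gene with its own range) of the 9 genes on all 32 arrays, by stimulus and odorant set. Grey points are GFP-negative and green points GFP-positive cells, symbols give the experiment number, and lines join the fractions of 1 experiment. The lines of Plxnc1 and Sema3a fall and those of Slit1 rise in all 16 pairs, while experiment 3 (triangles) is lowest within nearly every group.

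GFP-positive cells were compared with GFP-negative cells under vehicle to see which guidance transcripts go with the reporter gate before any odorant was added. Plxnc1 was 4.09-fold lower and Sema3a 1.62-fold lower in GFP-positive cells, and Slit1 was 1.47-fold higher as deposited, a difference that lost its call on the neuron scale and turned to −0.09 on the receptor scale. Plxna1 (+0.15) and Robo1 (+0.11) were higher by small amounts that turned negative on both of those scales, and Sema3f was lower by a small amount (−0.13). Nrp1, Nrp2 and Robo2 did not pass the test. The test was limma's with the experiment as a block. Its p-values were adjusted over all genes (Benjamini-Hochberg), with a threshold of 0.05. Thus 3 of the 9 genes were higher and 3 lower, where 45.1% of all genes were called higher and 21.9% lower. The shares among the 9 genes are near that background, so the counts say nothing particular to them, and the results rest on the sizes. The median difference was +0.02 over the 9 genes and +0.14 over all genes. Since RNA of whole sorted fractions was measured, fewer cells of a type and less RNA per cell cannot be told apart.

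**Figure D2:**
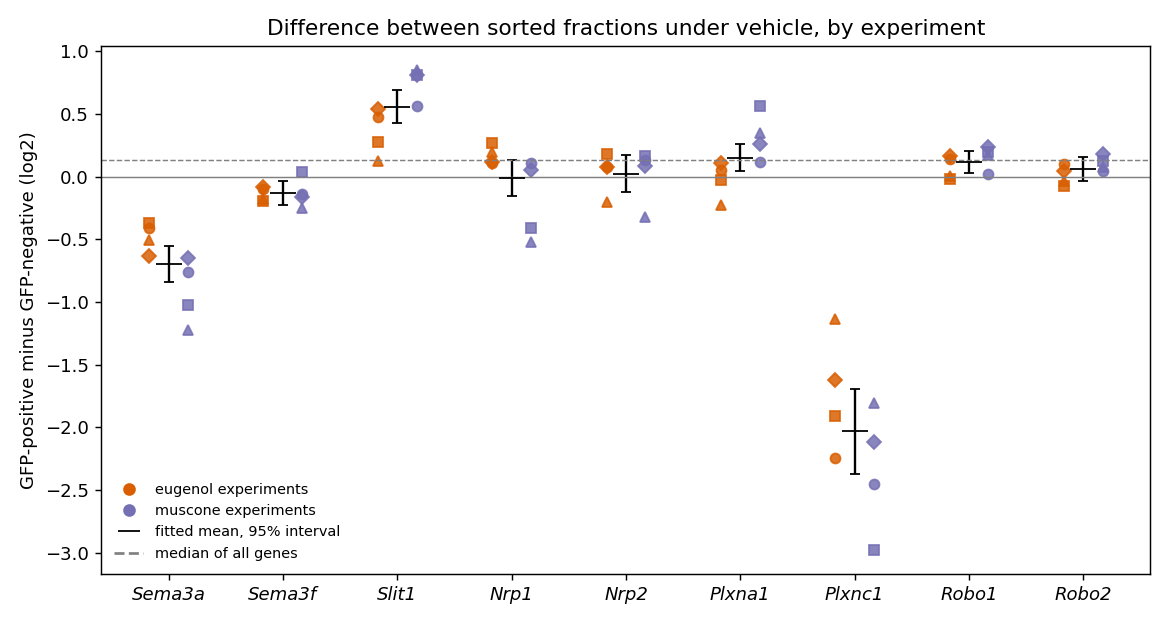
GFP-positive minus GFP-negative signal under vehicle (log2, vertical axis) for each gene, with 1 point per experiment: orange for eugenol and purple for muscone experiments, symbols by experiment number as before (1 circle, 2 square, 3 triangle, 4 diamond). Black bars are fitted means with 95% intervals, and the dashed line is the median of all genes at +0.14. All 8 points lie below 0 for Plxnc1 and Sema3a and above 0 for Slit1, which has a mean of −0.09 on the receptor scale.

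Among the ligands, Sema3a encodes a secreted repellent that binds Nrp1. Its signal under vehicle in GFP-negative cells was 9.99, 10.15, 9.25 and 9.78 in eugenol experiments 1 to 4 and 9.36, 9.44, 8.57 and 9.87 in muscone experiments 1 to 4. In GFP-positive cells it was 9.58, 9.78, 8.75 and 9.15, and 8.60, 8.41, 7.34 and 9.22, in the same order. The fractions overlap across experiments, but within each of the 8 experiments the GFP-positive array was the lower, by 0.37 to 1.22. The fitted difference was −0.70 (SE 0.069, adjusted p = 1.83e-08, limma), and −0.83 when set against the median of all genes, which a centring of the arrays leaves as it is. The adjusted p was 0.165 in the fit without the experiment block, in which differences between experiments count as spread. The group means were 9.79 ± 0.39 and 9.32 ± 0.46 for GFP-negative and GFP-positive cells in the eugenol set and 9.31 ± 0.54 and 8.39 ± 0.78 in the muscone set (SD, n = 4).

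Sema3f encodes a related repellent that binds Nrp2. Under vehicle its group means were 10.41 ± 0.44 in GFP-negative and 10.27 ± 0.45 in GFP-positive cells of the eugenol set, and 9.78 ± 0.78 and 9.66 ± 0.82 in the muscone set (SD, n = 4). The groups overlapped almost wholly. Within experiments the GFP-positive array was lower in 7 of 8, by at most 0.25, and 0.03 higher in muscone experiment 2. The fitted difference of −0.13 (SE 0.045) had an adjusted p of 0.0138 in limma. The call was lost without muscone experiment 3 (−0.11, adjusted p = 0.0523) and with centring on the median of all probe sets (−0.06, adjusted p = 0.351). On the neuron and receptor scales Sema3f was called lower, with a larger difference that reached −0.78 on the receptor scale. Without the experiment block its adjusted p was 0.924.

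Slit1, a secreted ligand of Robo receptors, had a signal under vehicle in GFP-negative cells of 11.17, 11.68, 10.78 and 10.98 in eugenol experiments 1 to 4 and 11.41, 9.72, 7.92 and 10.96 in muscone experiments 1 to 4. In GFP-positive cells it was 11.64, 11.96, 10.91 and 11.52, and 11.97, 10.53, 8.78 and 11.77. Levels spread over several log2 units in the muscone set, with experiments 2 and 3 lowest, yet the GFP-positive array of an experiment was the higher in 8 of 8, by 0.12 to 0.85. The fitted difference was +0.56 (SE 0.063, adjusted p = 1.32e-07, limma), or +0.42 against the median of all genes. On the neuron scale it was +0.06 (adjusted p = 0.412) and on the receptor scale −0.09 (adjusted p = 0.162), so its sign depended on the reference genes. Without the experiment block its adjusted p was 0.873.

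Among the semaphorin receptors, Nrp1 and Nrp2 encode the neuropilins that bind Sema3a and Sema3f. Nrp1 ran from 8.62 to 11.32 (median 10.82) on the 16 GFP-negative arrays and from 8.20 to 11.59 (median 10.89) on the 16 GFP-positive arrays. Its difference under vehicle was −0.01 (95% interval −0.16 to 0.14, adjusted p = 0.905 in limma). The experiments did not share a sign: it was +0.11, +0.27, +0.20 and +0.12 in eugenol experiments 1 to 4 and +0.11, −0.41, −0.52 and +0.06 in muscone experiments 1 to 4. The mean near 0 thus covers positive differences in the eugenol set and a split muscone set. Nrp2 ran from 9.09 to 11.44 (median 11.08) in GFP-negative and from 8.76 to 11.77 (median 11.15) in GFP-positive cells, with a difference of +0.02 (−0.13 to 0.17, adjusted p = 0.783). In Nrp2 the GFP-positive array was the higher in 6 of 8 experiments, and experiment 3 of each odorant set had the opposite sign (−0.21 and −0.33). These intervals hold for the values as deposited. On the neuron scale both neuropilins were lower, Nrp1 by −0.51 (adjusted p = 6.64e-05) and Nrp2 by −0.48 (adjusted p = 5.03e-04), and on the receptor scale they had −0.65 and −0.62.

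Plxna1, an A-type plexin that transduces class 3 semaphorin signals with neuropilins, ran from 9.94 to 12.88 (median 12.36) in GFP-negative and from 10.48 to 13.12 (median 12.61) in GFP-positive cells. Its difference under vehicle was +0.15 (SE 0.052, adjusted p = 0.0156, limma), but −0.35 on the neuron scale and −0.49 on the receptor scale. As deposited it was the size of the median of all genes, from which it lay +0.01 away. The 4 muscone experiments gave +0.12, +0.57, +0.35 and +0.26, and the 4 eugenol experiments +0.05, −0.03, −0.23 and +0.11. The positive differences thus came mainly from the muscone set. The call was lost without eugenol experiment 4 (adjusted p = 0.0693) and without muscone experiment 2 (adjusted p = 0.0800).

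Plxnc1, the receptor for Sema7a, showed the largest difference of the 9 genes. Its signal under vehicle in GFP-negative cells was 10.43, 9.93, 9.01 and 9.84 in eugenol experiments 1 to 4 and 9.95, 9.26, 7.90 and 9.87 in muscone experiments 1 to 4. In GFP-positive cells it was 8.19, 8.01, 7.88 and 8.22, and 7.49, 6.29, 6.09 and 7.75. Within an odorant set the highest GFP-positive array lay below the lowest GFP-negative array, so the fractions did not overlap. The group means were 9.80 ± 0.59 against 8.07 ± 0.16 in the eugenol set and 9.24 ± 0.95 against 6.90 ± 0.84 in the muscone set (SD, n = 4). The fitted difference was −2.03 (SE 0.16, adjusted p = 6.22e-10, limma), with single experiments between −1.13 and −2.98. Plxnc1 also passed without the experiment block, with an adjusted p of 2.11e-05.

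Robo1 and Robo2 encode the Slit receptors. Robo1 ran from 9.55 to 11.78 (median 11.36) in GFP-negative and from 9.73 to 11.75 (median 11.55) in GFP-positive cells, and its difference under vehicle was +0.11 (SE 0.042, adjusted p = 0.0228, limma), which turned to −0.39 on the neuron scale and −0.53 on the receptor scale. The GFP-positive array was the higher in 7 of 8 experiments, by 0.24 at most. The difference lay 0.02 below the median of all genes, as deposited, and the call was lost when any of 4 experiments was left out: eugenol 1 (adjusted p = 0.0761), eugenol 4 (0.0842), muscone 2 (0.0524) or muscone 4 (0.0815). It was also lost with quantile normalization (+0.08, adjusted p = 0.0859), without muscone experiments 2 and 3 together (0.0844) and without the experiment block (0.935). Robo2 ran from 9.82 to 12.37 (median 11.74) in GFP-negative and from 10.24 to 12.29 (median 11.87) in GFP-positive cells, and its difference of +0.06 (−0.04 to 0.15) did not pass (adjusted p = 0.261). With centring on the median of all probe sets it passed (+0.14, adjusted p = 0.00525), and it was −0.44 on the neuron scale and −0.59 on the receptor scale.

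Differences between 2 genes of the same experiment do not depend on how an array is centred. They were computed for pairs of ligands and receptors, and for some pairs of 2 ligands or 2 receptors, chosen with the values known, as a description without a test. Sema3a differed between the fractions by 0.69 less than its receptor Nrp1 (mean −0.69, SD 0.10, range −0.87 to −0.52, negative in 8 of 8 experiments). This range is narrow beside those of the single genes. For Slit1 the mean lay above that of Robo1 by 0.44 (0.12 to 0.68) and above that of Robo2 by 0.50 (0.16 to 0.78), positive in 8 of 8 experiments in each case. Sema3f against Nrp2 gave −0.16, negative in 6 of 8, and Nrp1 against Nrp2 gave −0.03, with 4 of each sign. Plxnc1 against Plxna1 gave −2.18, negative in 8 of 8. Slit1 lay above Sema3a by 1.25 (0.63 to 2.07), positive in 8 of 8. By construction a centring cannot change the order of the mean differences, which ran from Slit1 through the Robo genes and Sema3a to Plxnc1. That the order holds on each centred scale is thus no separate result.

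**Figure D3:**
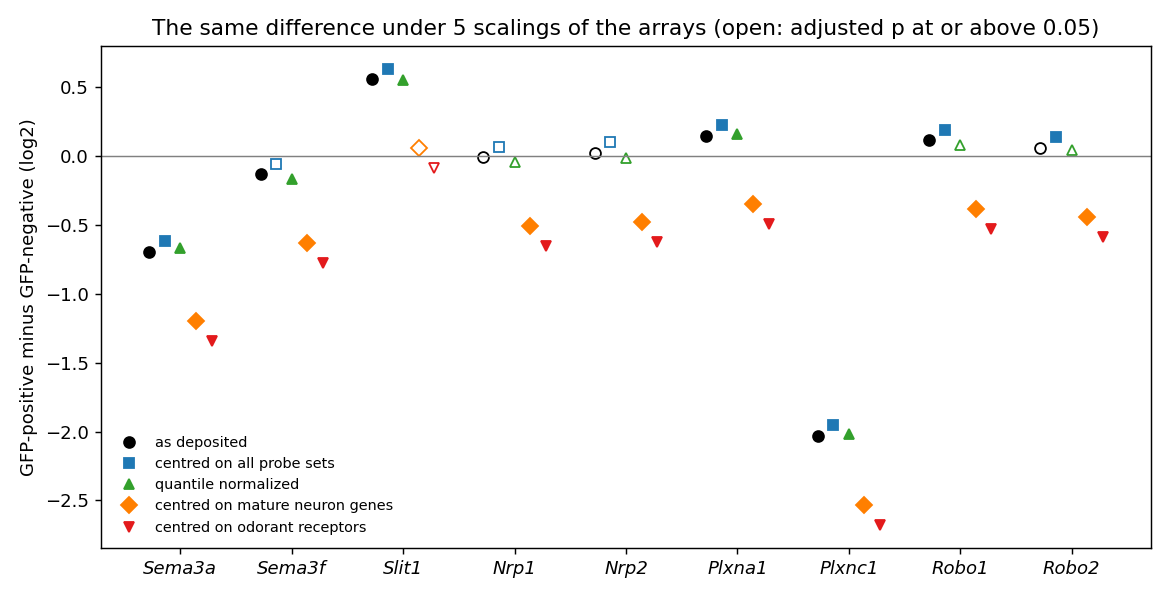
GFP-positive minus GFP-negative difference under vehicle (log2, vertical axis) of each gene under 5 scalings of the arrays: as deposited, centred on the median of all probe sets, quantile normalized, the neuron scale (centred on mature neuron genes) and the receptor scale (centred on odorant receptors). Open symbols did not pass at an adjusted p of 0.05. Plxnc1 and Sema3a are below 0 in all 5, Slit1 runs from +0.63 to −0.09, and Plxna1, Robo1 and Robo2 lie below 0 on the last 2.

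After eugenol the same comparison called 1 of the 9 genes higher and 2 lower, where 28.3% of all genes were called higher and 18.3% lower. Plxnc1 differed by −2.10 (SE 0.23, adjusted p = 2.09e-07, limma), with signals of 10.11, 10.21, 9.19 and 9.99 in GFP-negative and 7.80, 7.67, 7.45 and 8.16 in GFP-positive cells of experiments 1 to 4, again without overlap. Sema3a differed by −0.59 (SE 0.098, adjusted p = 4.80e-05), with 9.89, 10.14, 9.23 and 9.88 against 9.43, 9.54, 8.75 and 9.06. These groups overlap, and the GFP-positive array was the lower in 4 of 4. Slit1 differed by +0.48 (SE 0.090, adjusted p = 1.64e-04), with 11.35, 11.18, 10.55 and 11.00 against 11.81, 11.72, 10.95 and 11.51, but by −0.11 on the receptor scale. The other 6 genes did not pass. Nrp1 had +0.19 (adjusted p = 0.116), positive in 4 of 4 experiments (+0.36, +0.21, +0.11 and +0.09), and passed as higher in 4 alternatives, for example with centring on all probe sets (+0.28, adjusted p = 0.0164), but as lower on the receptor scale (−0.40, adjusted p = 0.0120). Sema3f had −0.14 (adjusted p = 0.0809) and passed as lower in 4 alternatives, for example with array weights (−0.18, adjusted p = 0.00233). Plxna1, Robo1, Robo2 and Nrp2 lay between −0.02 and +0.08 as deposited, and all 4 were called lower on the neuron and receptor scales.

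After muscone 4 of the 9 genes were higher and 2 lower, against 35.1% and 21.5% of all genes. Plxnc1 differed by −2.31 (SE 0.23, adjusted p = 2.41e-08, limma), with 10.60, 9.14, 8.34 and 10.50 in GFP-negative and 7.73, 6.85, 7.18 and 7.60 in GFP-positive cells. The fractions again stood apart. Sema3a differed by −0.74 (SE 0.098, adjusted p = 1.34e-06), with 9.67, 9.44, 8.53 and 9.63 against 8.89, 8.61, 7.81 and 9.01. Slit1 differed by +0.86 (SE 0.090, adjusted p = 4.33e-08), with 11.10, 9.57, 7.92 and 10.88 against 12.01, 10.32, 8.85 and 11.75, and by −0.084 on the receptor scale. Experiments 2 and 3 were lowest in both fractions of Slit1. Plxna1 (+0.53, SE 0.073, adjusted p = 2.31e-06), Robo2 (+0.32, SE 0.064, adjusted p = 2.43e-04) and Robo1 (+0.29, SE 0.060, adjusted p = 3.36e-04) were higher in 4 of 4 experiments as deposited and negative on the neuron scale (−0.19, −0.40 and −0.43) and the receptor scale. Against the median of all genes Plxna1 lay at +0.39, Robo2 at +0.18 and Robo1 at +0.15. Nrp1 (−0.11, adjusted p = 0.341), Nrp2 (+0.09, adjusted p = 0.449) and Sema3f (−0.01, adjusted p = 0.876) did not pass as deposited. They were called lower on the neuron scale (−0.83, −0.62 and −0.73) and on the receptor scale (−1.06, −0.86 and −0.96). Nrp2 was called higher without muscone experiments 2 and 3 (+0.34, adjusted p = 0.0190).

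Over all 16 pairs of fractions, vehicle and odorant together, the GFP-positive array was the lower in 16 for Plxnc1 and in 16 for Sema3a, and the higher in 16 for Slit1. Robo1 was the higher in 15, Robo2 in 13 and Plxna1 in 12, while Sema3f was the lower in 13, and Nrp1 and Nrp2 were the higher in 11 and 10, all as deposited. The pairs of 1 experiment are not independent, so these counts are a description.

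The eugenol and muscone experiments were also set against each other under vehicle, where neither had received an odorant. None of the 9 genes passed in limma, higher (0% of all genes) or lower (0%), although 4 of them and 3104 of all genes had a raw p under 0.05. Plxna1 had the smallest p of the 9, as its difference between fractions was 0.35 less in the eugenol than in the muscone set (−0.35, adjusted p = 0.187, limma). The difference between sets was −0.41 for Slit1 (adjusted p = 0.189), +0.44 for Sema3a (0.191) and +0.37 for Nrp1 (0.236). For Plxnc1 it was +0.61, with an adjusted p of 0.359. Muscone experiments 2 and 3, which had low signals, lay at the outer end for Nrp1, Plxna1 and Sema3a. Without these 2 experiments the difference between sets was +0.09 for Nrp1, −0.21 for Plxna1, +0.23 for Sema3a, −0.33 for Slit1 and +0.56 for Plxnc1, and none passed (adjusted p of 0.565 to 0.817 in limma).

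Odorant was then compared with vehicle within each fraction, the comparison that asks whether exposure moved these transcripts. In limma none of the 9 genes passed. The shares called among all genes, in either direction, were 0% for eugenol in GFP-positive cells (923 genes with a raw p under 0.05), 0% for eugenol in GFP-negative cells (466), 0.00502% for muscone in GFP-positive cells (746) and 0% for muscone in GFP-negative cells (1704). The widest intervals were those of Plxnc1. Its difference was −0.30 after eugenol in GFP-positive cells (95% interval −0.78 to 0.17, lower in 4 of 4 experiments) and +0.07 in GFP-negative cells. After muscone it was +0.43 in GFP-positive cells (−0.04 to 0.91, higher in 3 of 4) and +0.40 in GFP-negative cells (−0.08 to 0.88, higher in 3 of 4). These intervals admit changes of either sign. They use 1 spread per gene pooled over all groups, and fraction differences that recur within an experiment count in it. In GFP-positive cells the SD of the 4 single Plxnc1 differences was 0.17 after eugenol and 0.52 after muscone. No test paired within a fraction was run. Single experiments ran from −0.15 to +1.08 for muscone in GFP-positive cells, and the largest was experiment 3.

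For the ligands, Sema3a had −0.12 after eugenol (−0.32 to 0.08) and +0.19 after muscone (−0.02 to 0.39) in GFP-positive cells. Slit1 had −0.01 (−0.19 to 0.18) and −0.03 (−0.22 to 0.16) there, and −0.13 in GFP-negative cells after either odorant, lower in 4 of 4 muscone experiments and in 2 of 4 eugenol experiments. Over the 4 comparisons the intervals of Slit1 reached from −0.32 to 0.18. Sema3f had +0.05 after eugenol in both fractions, and −0.12 after muscone in GFP-negative cells (−0.25 to 0.02).

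For the receptors, the smallest p was that of Robo2 in GFP-negative cells after muscone (−0.18, 95% interval −0.31 to −0.05, lower in 4 of 4 experiments, adjusted p = 0.450, limma). Plxna1 followed in the same cells (−0.16, −0.32 to −0.01, lower in 3 of 4, adjusted p = 0.545). Neither passed over all genes. Nrp1 was −0.10 after eugenol in GFP-negative cells (−0.31 to 0.11, lower in 4 of 4), and Robo1 stayed within −0.08 and +0.05 in the 4 comparisons. Robo1 thus had the narrowest intervals of the 9 genes, and those after eugenol reached no further than 0.13 from 0. Its single differences after eugenol in GFP-positive cells ran only from −0.01 to +0.01, so the width there is that of the pooled spread.

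**Figure D4:**
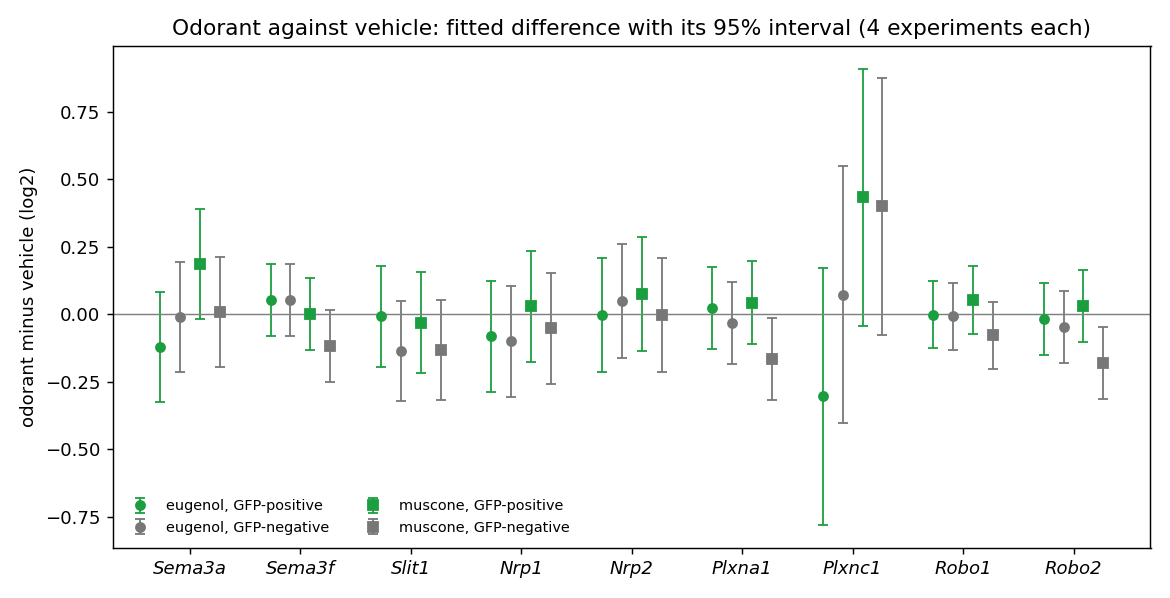
Odorant minus vehicle signal (log2, vertical axis) of each gene with its 95% interval from the fit, for eugenol (circles) and muscone (squares) in GFP-positive (green) and GFP-negative (grey) cells, 4 experiments each. The intervals include 0 except those of Plxna1 and Robo2 in GFP-negative cells after muscone, and none of the 9 genes passed after adjustment.

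Whether an odorant altered the difference between the fractions was tested as an interaction. None of the 9 genes passed in limma after eugenol (0% of all genes called, 237 with a raw p under 0.05) or after muscone (0.00502%, 888). After muscone the 9 values were all positive as deposited, from +0.03 for Plxnc1 to +0.21 for Plxna1 and Robo2, each with an adjusted p of at least 0.985. They share the arrays, so their common sign is not a separate result. The eugenol effect minus the muscone effect called none of the 9 genes in GFP-positive cells (0.00502% of all genes, 1390 with a raw p under 0.05) or in GFP-negative cells (0%, 710). In GFP-positive cells it was −0.74 for Plxnc1 and −0.31 for Sema3a, both with an adjusted p of 0.713 in limma.

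The genes most like each of the 9 were found by Pearson correlation over the 32 arrays after each experiment's mean was taken off, as a description. For Plxnc1 they were Cd48 (r = 0.993), a surface protein of white blood cells, and Tyrobp (r = 0.992), a signalling adaptor of myeloid cells. For Sema3a they were Rab3c (r = 0.984), a GTPase of secretory vesicles, and Mfng (r = 0.977), a glycosyltransferase that modifies Notch. For Slit1 they were Slc24a2 (r = 0.987), a sodium, calcium and potassium exchanger, and Adam23 (r = 0.986), a membrane protein of neurons. These values come largely from the step between the fractions. Over the 16 differences between fractions, which leave out that step, r was 0.905, 0.925, 0.852, 0.910, 0.918 and 0.917 in the same order. Plxna1 was most like Rims3 (0.945) and Syt7 (0.942), which encode presynaptic and vesicle proteins, Robo1 most like Scamp1 (0.931) and Cadm3 (0.922), and Robo2 most like Prrc2b (0.903) and Syt7 (0.895). Over the 32 arrays r was 0.833 for Nrp1 with Arpp19, 0.799 for Sema3f with Zfp687 and 0.765 for Nrp2 with Zfp423, and over the 16 differences it was 0.854, 0.600 and 0.868.

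Among the 9 genes themselves, Plxnc1 and Sema3a went together (r = 0.922 over the 32 arrays with experiment means removed) and both ran against Slit1 (−0.911 and −0.909). These values too come largely from the step between the fractions, so they do not show a shared course across experiments. Slit1 went with its receptor Robo1 (0.867) and with Robo2 (0.777), and Plxna1 with Robo1 (0.829) and Robo2 (0.811). Over the same arrays r was 0.232 for Sema3a with its receptor Nrp1, and 0.305 for the 2 neuropilins. Sema3a had a step between the fractions and Nrp1 as deposited had none, so 0.232 does not describe their course across experiments. Under vehicle their differences between fractions had SDs of 0.30 and 0.29 over the 8 experiments. Sema3a minus Nrp1 had an SD of 0.10. This smaller spread came from muscone experiments 2 and 3, where both genes were lowest (Sema3a −1.03 and −1.22, Nrp1 −0.41 and −0.52). In the other experiments Nrp1 ran from +0.06 to +0.27 and Sema3a minus Nrp1 from −0.87 to −0.52, which is no narrower. The arrays of an experiment share cells and scaling, so no test is given.

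Markers of cell types moved with several of these genes. The mean level of the 8 neutrophil genes ran from 7.23 to 9.76 on GFP-positive and from 11.0 to 12.7 on GFP-negative arrays, and that of the 7 macrophage genes from 7.46 to 9.70 and from 9.50 to 11.5. No marker of either list was dim on all GFP-positive arrays. Across the 8 experiments, the GFP-positive to GFP-negative difference of Plxnc1 correlated with that of the neutrophil genes at r = 0.764 (0.731 without the 2 farthest experiments) and with that of the macrophage genes at 0.804 (0.700). The same measure for immature neuron genes was 0.163 with Plxnc1 but 0.899 with Sema3a (0.957 without the 2 farthest). The mean level of the 9 immature neuron genes ran from 9.61 to 11.2 in GFP-positive and from 10.6 to 11.9 in GFP-negative cells. Sema3a gave −0.282 with the neutrophil genes, which became 0.532 without the 2 farthest experiments. Slit1 went with the mature neuron genes (0.781, and 0.817 without the 2 farthest), whose mean level ran from 11.6 to 13.3 in GFP-positive and from 10.5 to 13.0 in GFP-negative cells. It also ran against the basal progenitor genes (−0.833 and −0.779) and went with the fibroblast genes (0.711 and 0.540). The strongest of all these correlations was that of Nrp1 with the immature neuron genes (0.943, and 0.959 without the 2 farthest). Sema3f ran against the macrophage genes (−0.899, and −0.579 without the 2 farthest), Plxna1 against the basal progenitor genes (−0.870 and −0.687) and Nrp1 against the fibroblast genes (−0.841 and −0.539). With the mean of each odorant set removed, Slit1 gave 0.613 with mature neuron, −0.275 with basal progenitor and 0.307 with fibroblast genes. Plxna1 gave −0.479 with basal progenitor and Nrp1 −0.703 with fibroblast genes. Plxnc1 then gave 0.814 with neutrophil, 0.774 with mature neuron, 0.755 with macrophage, 0.623 with ensheathing glia and 0.617 with endothelial genes. These values were thus not particular to white blood cell markers. With the set means kept, Plxnc1 gave 0.246 with mature neuron genes, and −0.474 without the 2 farthest experiments. Sema3a (0.820) and Nrp1 (0.899) kept to the immature neuron genes. Sema3f gave −0.907 with mature neuron, −0.902 with neutrophil and −0.885 with macrophage genes, so no single cell type stood out for it. With the set means kept but the 2 farthest experiments left out, Sema3f gave 0.653 with mature neuron and −0.940 with neutrophil genes. The immature list holds Crmp1 and Dpysl5, which also transduce semaphorin signals. The part of these cells in the differences of the 9 genes was not tested.

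The other genes of the guidance pathways were taken from lists of names. Of 78 measured under vehicle, 34 were called higher and 25 lower in GFP-positive cells as deposited, with a median difference of +0.04, where 45.1% and 21.9% of all genes were called. After eugenol 21 were higher and 21 lower (28.3% and 18.3% of all genes), and after muscone 32 and 19 (35.1% and 21.5%). The counts under vehicle became 6 and 63 on the neuron scale, where 895 of all genes were higher and 15,661 lower, and 4 and 71 on the receptor scale, where the split of all genes was 605 and 18,062.

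The counts of each list below are as deposited, where 45.1% of all genes were called higher and 21.9% lower. Among 5 other class 3 semaphorins 2 were higher and 1 lower. Sema3e, whose main receptor is Plxnd1, was higher (+1.02, SE 0.087, adjusted p = 1.78e-09, 8 of 8 experiments), opposite in sign to Sema3a. It had +0.38 on the receptor scale and an adjusted p of 0.0939 without the experiment block. Sema3g (+0.16) was higher as deposited and negative on the neuron and receptor scales, and Sema3b (−0.19) was lower. Sema3b lost its call in 5 of 18 alternatives: with centring on all probe sets (−0.11, adjusted p = 0.0846), without eugenol 3 (0.0621), eugenol 4 (0.0573) or muscone 1 (0.0566), and without the experiment block (0.916). Among 13 semaphorins of other classes 7 were higher and 4 lower. Sema7a, the ligand of Plxnc1, was higher in GFP-positive cells (+0.78, SE 0.071, adjusted p = 4.70e-09, 8 of 8), opposite in sign to its receptor, with single experiments from +0.46 to +1.09. Sema7a had +0.29 on the neuron scale and +0.14 on the receptor scale (adjusted p = 0.0137), and an adjusted p of 0.433 without the experiment block. Sema4a, a membrane semaphorin also made by immune cells, was lower (−2.08, adjusted p = 8.66e-12), by about as much as Plxnc1. Sema6c (+0.35) was higher as deposited and negative on the neuron and receptor scales.

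Of 7 other plexins 3 were higher and 2 lower, as deposited, against 45.1% and 21.9% of all genes. Plxna3, a partner of the neuropilins, was higher (+0.73, adjusted p = 1.77e-08, 8 of 8), beside +0.15 for Plxna1, though it did not pass on the receptor scale. Plxnb3 (+0.49) was higher as deposited, and negative on the neuron and receptor scales, and Plxnd1 (−0.57) was lower, opposite in sign to its ligand Sema3e. Of 4 other Slit and Robo genes 1 was higher and 1 lower. Slit2 was lower (−0.52, SE 0.11, adjusted p = 4.53e-04, 7 of 8), opposite in sign to Slit1 as deposited but not on the receptor scale, where Slit2 had −1.17. Slit3 (+0.15) was higher as deposited and negative on the neuron and receptor scales, and Robo3 (−0.19, adjusted p = 0.115) did not pass.

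Of 20 transducers of semaphorin signals 6 were higher and 12 lower (median −0.21), as deposited, against 45.1% and 21.9% of all genes. The same shares apply to the lists that follow. They included Dpysl3, a collapsin response mediator of growing neurons (−2.08, adjusted p = 2.17e-13), Fes, a tyrosine kinase that is also abundant in myeloid cells (−1.56, adjusted p = 3.87e-10), and Mical1, an actin-oxidizing enzyme (−1.18, adjusted p = 6.78e-09), each lower in 8 of 8 experiments. Of 14 transducers of Slit and Robo signals 5 were higher and 4 lower. The GTPase-activating proteins Srgap2 (+0.43) and Arhgap39 (+0.28) were higher as deposited and negative on the neuron and receptor scales, and the kinase Abl1 (−0.35) was lower. Of 15 other genes of olfactory axon guidance 10 were higher and 1 lower (median +0.22). They included the ephrin receptors Epha5 (+1.11, adjusted p = 1.53e-09) and Epha7 (+0.84, adjusted p = 1.82e-10) and the adhesion molecule Kirrel2 (+0.83, adjusted p = 3.76e-09), each higher in 8 of 8 experiments, while Kirrel2 did not pass on the receptor scale.

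**Figure D5:**
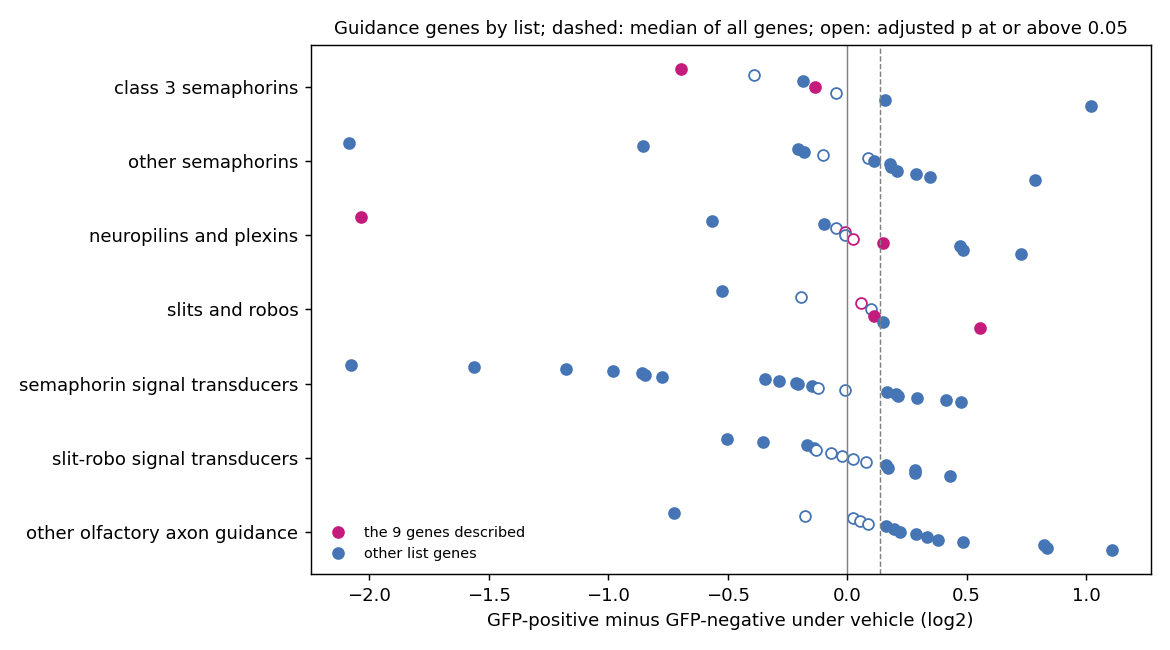
GFP-positive minus GFP-negative difference under vehicle (log2, horizontal axis, as deposited) of the 9 genes (magenta) and the 78 other genes of the pathway lists (blue), 1 row per list, with filled points past an adjusted p of 0.05. The dashed line is the median of all genes (+0.14). Plxnc1 at −2.03 and Sema4a at −2.08 lie far left in their rows, and Sema3e (+1.02) and Epha5 (+1.11) far right.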

How the data were processed

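Sorted GFP-positive and GFP-negative cells of the olfactory mucosa were measured on 32 arrays. The deposited values are log2 signals of 35,556 probe sets, made by the authors in Affymetrix Expression Console per the submitters' processing notes. For the version, background correction, normalization and summary the entry is "not given in the sources used here". Precision is limited by having 4 arrays per group. The platform annotation gave 1 symbol to 21,789 probe sets, several to 1621 and none to 12,146. Names were checked against RefSeq (GRCm38.p6), where 21,698 matched by gene ID.

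All arrays entered 1 fit in limma 3.58.1 (R 4.3.3) that estimated 8 group means with a fixed block for experiment. Tests were two-sided over 19,938 genes. The block comes from the array titles. Deviations from the group means of arrays in the same experiment correlated at 0.20 to 0.91 for 48 pairs, all above 0.1. Between experiments the median was −0.21, and 12 of 144 pairs were above 0.1, up to 0.44. Taking off the group means itself pushes the values between experiments below 0, so their sign is no separate support. On simulated data for muscone in GFP-positive cells the fit recovered 98% of 100 changes of 1 and 100% of 100 changes of 2 (log2) among 19,938 genes.

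The 9 genes and the lists were chosen with earlier results of these data known. Besides the 9 genes, the text names 3 genes per pathway list with the smallest p under vehicle and 2 most like each gene. The 19 alternatives covered scalings, filters, weights, the block, arrays of 1 odorant set and leaving out experiments.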

Additional observations from a re-analysis of the deposited data

How the results depend on the processing

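Plxnc1 was lower in GFP-positive cells and passed in all 3 comparisons of the fractions under each of 19 alternatives (18 under vehicle), and Sema3a kept its direction in all and its call in all but the fit without the replicate block. That fit left 0 of the 9 genes higher under vehicle, after eugenol and after muscone, 1 lower in each, and 1 other pathway gene higher and 4 lower under vehicle. The neuron scale (arrays centred on mature neuron genes) gave 0 higher in each comparison, 8 lower under vehicle, 7 after eugenol and 7 after muscone, and 6 other pathway genes higher and 63 lower. The receptor scale (centred on odorant receptors) gave 0 higher and 8 lower in each, and 4 other pathway genes higher and 71 lower. It also called 1 of the 9 genes higher for muscone in GFP-negative cells (Plxnc1, +0.68, adjusted p = 0.0286, limma). Centring on all probe sets gave 3 higher after eugenol and 15 other pathway genes lower. After eugenol array weights gave 3 higher, the arrays of that odorant set alone 2, and leaving out muscone experiments 2 and 3 gave 2 (1 under vehicle). Leaving out 1 experiment at a time gave 1 to 3 higher and 2 to 3 lower under vehicle, with 1 higher without eugenol 4 or muscone 2. All genes split as 8990 higher and 4375 lower as deposited (median +0.14), 11,680 and 3668 with centring on all probe sets (+0.21), 895 and 15,661 on the neuron scale (−0.36), 605 and 18,062 on the receptor scale (−0.51), and 340 and 1328 without the block. Values that turned around under vehicle, on the neuron and then the receptor scale, were −0.48 and −0.62 for Nrp2, −0.35 and −0.49 for Plxna1, −0.39 and −0.53 for Robo1, −0.44 and −0.59 for Robo2, and with the second alone −0.087 for Slit1. After eugenol they were −0.42 and −0.55 for Plxna1, −0.37 and −0.51 for Robo1, −0.41 and −0.55 for Robo2, and with the second alone −0.40 for Nrp1 and −0.11 for Slit1. After muscone they were −0.62 and −0.86 for Nrp2, −0.19 and −0.42 for Plxna1, −0.43 and −0.66 for Robo1, −0.40 and −0.63 for Robo2, and −0.084 for Slit1. Other pathway genes that turned around under vehicle were Arhgap39 (−0.22 and −0.36), Plxnb3 (−0.014 and −0.16), Sema3g (−0.34 and −0.49), Sema6c (−0.15 and −0.30), Slit3 (−0.35 and −0.49) and Srgap2 (−0.0699 and −0.21). A centring moves all genes of an array by the same amount, which is what turned these values. Against a dim level of 6.19, 17,300 genes and all 9 described here remained with the dim filter.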
